A study of Mus musculus with 19 samples.

Results

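UDP-glucuronosyltransferases (*Ugt*) and sulfotransferases (*Sult*) are the enzymes that join glucuronic acid or sulfate to drugs, steroids, thyroid hormones, bilirubin and bile acids. The members were all protein-coding genes of the deposited count table with a symbol of *Ugt* families 1 to 3 or of a *Sult* family, without regard to their values. This gave 42 of 31053 genes, 21 *Ugt* genes (9 of family 1, 10 of family 2 and 2 of family 3) and 21 *Sult* genes (6 of *Sult1*, 9 of *Sult2*, 2 of *Sult3*, 1 of *Sult4*, 1 of *Sult5* and 2 of *Sult6*). In the study, liver RNA of male C57BL6J mice, 6 to 8 weeks old at the start, was sequenced from the 3′ ends of transcripts with a poly(A) tail. Vehicle mice (5 libraries) received PBS, and their labels name neither thioacetamide (TAA), a hepatotoxin that causes fibrosis, nor a vector. AAV-GFP mice (7 libraries) received TAA at rising doses for 12 weeks and, after 10 weeks of TAA, an AAV8 vector with green fluorescent protein. AAV-miR-34b/c mice (7 libraries) received the same TAA and, at that time, 2 AAV8 vectors, one with miR-34b and one with miR-34c. Both TAA groups were sacrificed 4 weeks after the vector, whose TBG promoter is active in hepatocytes only. No group received a vector without TAA, so the comparisons with vehicle cannot tell TAA from vector. Livers were sequenced whole, and fewer cells of a type and less RNA per cell cannot be told apart.

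Glucuronidation takes place in the endoplasmic reticulum and uses UDP-glucuronic acid, which is made from UDP-glucose. Sulfation of small molecules takes place in the cytosol and uses the activated sulfate PAPS. Both make their substrates more soluble in water, so that they can leave the hepatocyte for bile or blood through efflux transporters, and both are among the main activities of hepatocytes.

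Total counts were 2214073 to 4145454 in vehicle, 2463842 to 4383805 in AAV-GFP and 2717503 to 5208405 in AAV-miR-34b/c libraries. All 7 hepatocyte markers listed in the table were detected in each group, and their summed level was 62414 to 79266 CPM (TMM-normalized counts-per-million) in vehicle, 59462 to 67008 in AAV-GFP and 46940 to 81202 in AAV-miR-34b/c livers. Within groups, 6 pairs of libraries were closer to each other than the other 46 pairs, with a coefficient of variation beyond counting noise of 0.0925 to 0.142 against 0.203 to 0.472. AAV-miR-34b/c libraries 1 and 2 are such a pair and stood apart from libraries 3 to 7 of their group (0.332 to 0.472). Their neutrophil markers summed to 1910.4 and 1899 CPM, against 62.8 to 421 in the other AAV-miR-34b/c libraries, 14.8 to 74.2 in AAV-GFP and 16.4 to 80.5 in vehicle libraries. All 3 neutrophil genes that could be tested were higher in AAV-miR-34b/c than in vehicle and AAV-GFP, against 12.2% and 1.95% of all genes. AAV-GFP libraries 6 and 7 stood apart from libraries 1 to 4 of their group (0.338 to 0.394). For the members, the value without these libraries is given where it changes a call of the test.

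Of the members, 13 lie in one cluster of 702 kb on chromosome 5 (86889767 to 87591594, GRCm38), among them all 10 family 2 *Ugt* genes, *Sult1b1*, *Sult1d1* and *Sult1e1*. All but *Ugt2b35* are on the minus strand. The start regions of 4 of these neighbours are shown because 3 of them have a long stretch in common and include *Ugt2b37* and *Ugt2b38*, the 2 members whose mean log2 CPM differed most between AAV-miR-34b/c and vehicle. They are the 150 bases before the RefSeq start (GRCm38.p6, minus strand, written 5′ to 3′), at chr5:87140341-87140490 for *Ugt2b5*, chr5:87254789-87254938 for *Ugt2b37*, chr5:87424204-87424353 for *Ugt2b38* and chr5:87092556-87092705 for *Ugt2b36*. Capitals mark the stretch of 62 bases shared by the first 3, which no other of the 32851 promoters searched held, and the 22 of these bases found before *Ugt2b36*.
Ugt2b5: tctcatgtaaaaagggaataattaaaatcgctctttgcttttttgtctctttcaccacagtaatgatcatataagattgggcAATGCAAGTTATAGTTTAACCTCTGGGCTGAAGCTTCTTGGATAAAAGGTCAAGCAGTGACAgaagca
Ugt2b37: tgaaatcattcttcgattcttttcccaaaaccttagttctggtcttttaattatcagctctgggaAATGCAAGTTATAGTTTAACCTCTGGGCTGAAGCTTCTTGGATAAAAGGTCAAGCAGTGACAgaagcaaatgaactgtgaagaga
Ugt2b38: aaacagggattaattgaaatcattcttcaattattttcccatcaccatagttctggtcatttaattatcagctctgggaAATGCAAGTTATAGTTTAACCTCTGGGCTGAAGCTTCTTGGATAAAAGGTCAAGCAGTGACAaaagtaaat
Ugt2b36: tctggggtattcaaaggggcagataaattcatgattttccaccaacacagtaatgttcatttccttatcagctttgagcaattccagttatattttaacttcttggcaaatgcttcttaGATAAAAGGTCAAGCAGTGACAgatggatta

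*Ugt2b1*, *Ugt2b34* and *Ugt2b35* shared shorter runs with these and with each other, of at most 14 bases. The hepatocyte factor HNF1 binds GTTAATNAT, and this motif, on either strand, was found in 8 of the 39 promoters listed for 36 members (250 bases before to 50 after the start) and in 0.801% of all promoters. These were the promoters of *Sult1d1*, *Sult2a3*, *Sult2a4*, *Sult2a5*, *Sult2a6*, *Ugt1a1*, *Ugt1a9* and *Ugt1a10*. Of these 8 genes only *Sult1d1* and *Ugt1a1* had enough counts to be tested. Their start regions are shown with the match in capitals, at chr1:88211809-88211958 (plus strand) for *Ugt1a1* and chr5:87569007-87569156 (minus strand) for *Sult1d1*, which also holds a match to the AhR motif TNGCGTG in capitals, on the other strand.
Ugt1a1: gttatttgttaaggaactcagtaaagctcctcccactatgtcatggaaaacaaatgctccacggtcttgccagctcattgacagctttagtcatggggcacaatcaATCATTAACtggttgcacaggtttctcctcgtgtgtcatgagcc
Sult1d1: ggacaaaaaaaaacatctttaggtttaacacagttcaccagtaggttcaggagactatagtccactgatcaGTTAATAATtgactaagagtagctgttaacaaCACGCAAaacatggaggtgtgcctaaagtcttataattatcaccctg

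The AhR motif was found in 2 member promoters (*Sult1d1* and *Ugt1a5*) and in 5.07% of all promoters, the NRF2 motif TGACNNNGC in none and in 12.4%, and the HNF4 motif CAAAGTCCA in 1 (*Sult1b1*) and in 0.475%. The HNF1 core GTTAAT, which is contained in the full motif and was chosen after the data were seen, was found in 13 and in 7.1% of all. A match is a description of the letters in this window only.

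The delivered miRNAs were miR-34b and miR-34c. The mature mouse miR-34b-5p of RefSeq (GRCm38.p6, chr9:51103610-51103632, minus strand) is shown with its seed (bases 2 to 8) in capitals, since the seed pairs with target transcripts.
mmu-miR-34b-5p: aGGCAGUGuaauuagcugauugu

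The seed match CACTGCC was found in the longest annotated 3′ UTR of none of the 42 members and of 2497 of 15250 genes with a count (16.4%). The median length of these 3′ UTRs was 563 bases in the members and 1101 bases in all of these genes. A shorter match of 6 letters, ACTGCC, was found in 9 members, all of them *Ugt1a* genes, and in 33.1% of all genes. Both letter strings were chosen after the data were seen.

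Of the 42 members, 15 had no count in any library (*Sult1c1*, *Sult2a1* to *Sult2a6*, *Sult3a2*, *Sult6b1*, *Sult6b2*, *Ugt1a2*, *Ugt1a8*, *Ugt1a10*, *Ugt2a1* and *Ugt2a2*). Another 10 had counts too low for any comparison. Their highest count in a library was 13 for *Ugt1a7c*, 11 for *Ugt1a6a*, 10 for *Sult1c2*, 8 for the estrogen sulfotransferase *Sult1e1*, 5 for *Ugt3a1*, 3 for *Sult2b1*, *Sult4a1* and *Ugt1a9*, and 2 for *Sult3a1* and *Ugt1a6b*. The remaining 17 passed the filter on low counts in at least 1 comparison and 15 in all 3, and 12 were called in at least 1 (edgeR's quasi-likelihood test, Benjamini-Hochberg adjusted p under 0.05 over all genes tested). The replicates are labelled as biological, and all libraries were taken as separate mice. Whether the 6 close pairs of libraries are independent mice was not tested, and the p-values measure the spread between mice only if they are.

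Livers of AAV-miR-34b/c mice had lower levels of 8 of the 10 *Ugt* genes that could be tested than vehicle livers, against 9.75% of all genes. Summed over the *Ugt* members, levels were 2983 to 3445 CPM in vehicle, 1726 to 4204 in AAV-GFP and 1241 to 1955 in AAV-miR-34b/c livers. Summed *Sult* levels were 642 to 1018 CPM in vehicle, 235 to 660.2 in AAV-GFP and 289.7 to 738 in AAV-miR-34b/c livers, so that both TAA groups overlapped vehicle. In AAV-miR-34b/c against vehicle, 11 of 16 tested members were lower, against 9.75% of all 9290 genes tested, and 0 were higher, against 12.2%. With close pairs of libraries summed 4 were lower in edgeR, against 1.21% of all genes. The calls of *Sult1b1*, *Sult1d1*, *Ugt1a1*, *Ugt2b1*, *Ugt2b5*, *Ugt2b34*, *Ugt2b35* and *Ugt2b36* were lost there. In that fit all 8 tested family 2 *Ugt* genes were lower at an unadjusted p under 0.05, against 11.1% of all genes. DESeq2 and limma-voom each called 1 higher (*Ugt1a5*), against 14.2% and 20.5% of all genes, which was also the only member higher at an unadjusted p under 0.05 in edgeR. The median log2 fold change was -0.94 in the members and 0.02 in all genes. Between AAV-GFP and vehicle, 2 of 16 were lower, against 5.19% of 9522 genes, and 0 were higher, against 7.54%; DESeq2 and limma-voom likewise called 0 higher, and 0 were higher at an unadjusted p under 0.05. The median was -0.24, against -0.01 in all genes. In AAV-miR-34b/c against AAV-GFP, 3 of 15 were lower, against 1.42% of 9252 genes, and 1 was higher, against 1.95%, with a median of -0.58 against -0.01. The number lower between the TAA groups was 1 without AAV-GFP library 6 or 7, 7 without AAV-GFP library 4, 7 with DESeq2 and 0 with close pairs of libraries summed. These comparisons share libraries, so that they are not independent of each other. For single genes below, overlap of livers between groups is given as a description. How many of all genes show no overlap was not counted.

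The share of all genes called differed between tools. DESeq2 called 9.68% higher and 6.74% lower in AAV-GFP against vehicle, 14.2% and 12.0% in AAV-miR-34b/c against vehicle, and 3.28% and 2.69% between the TAA groups. With limma-voom these shares were 14.2% and 14.0%, 20.5% and 20.9%, and 4.54% and 4.25%. At an unadjusted p under 0.05 in edgeR they were 16.2% and 13.5%, 19.4% and 17.5%, and 7.51% and 7.77%.

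**Figure D1:**
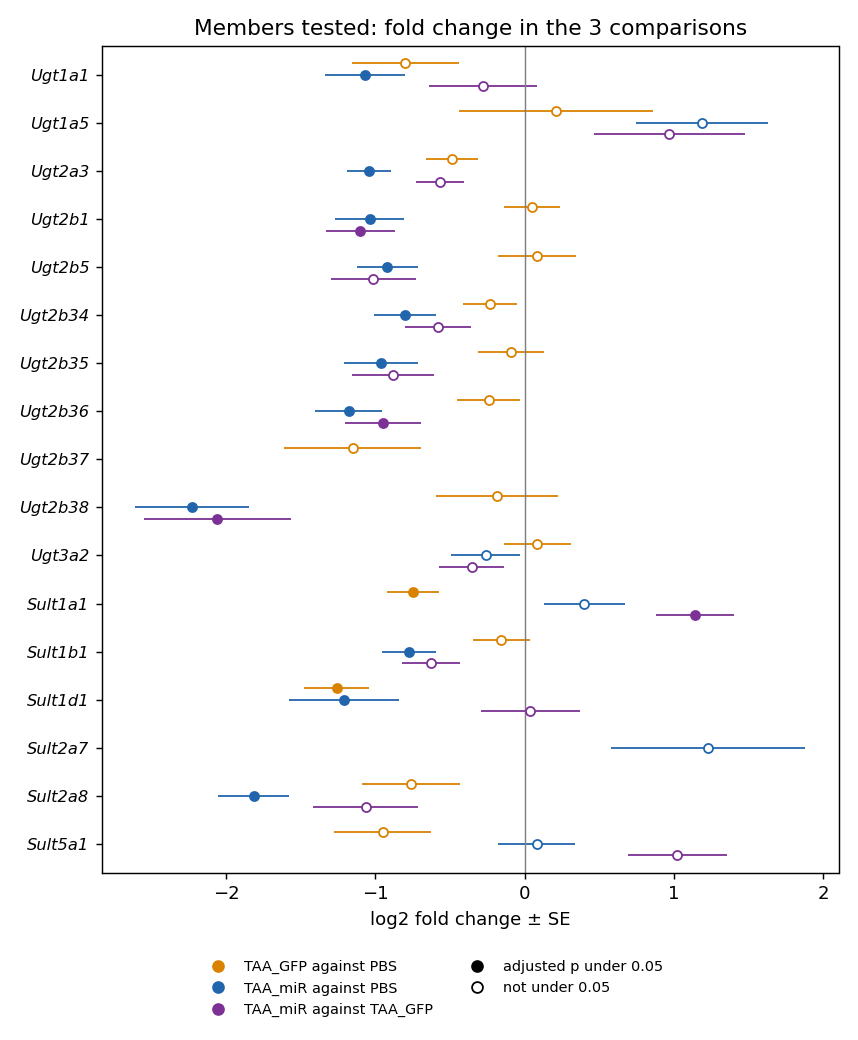
Log2 fold change (x axis, ± standard error) of the 17 tested members in the 3 comparisons, with filled points at an adjusted p under 0.05 (edgeR) and open points for the others; TAA_GFP and TAA_miR are the AAV-GFP and AAV-miR-34b/c groups and PBS is vehicle. In AAV-miR-34b/c against vehicle, 11 filled points lie below 0 and none above, against 9.75% and 12.2% of all genes tested.

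Family 2 *Ugt* genes encode enzymes that glucuronidate steroids, bile acids and drugs, and each has its own promoter. All 7 that could be tested in AAV-miR-34b/c against vehicle were lower, by 0.80 to 2.23 on the log2 scale, against 9.75% of all genes. With close pairs of libraries summed 3 of 8 tested were (*Ugt2a3*, *Ugt2b37* and *Ugt2b38*), against 1.21%. In AAV-GFP against vehicle 0 of 8 were lower in edgeR, against 5.19% of all genes. At an unadjusted p under 0.05 in edgeR 2 were lower, against 13.5%. DESeq2 called 1 lower, against 6.74%, and limma-voom 3, against 14.0%. None was higher in any of these. Compared to AAV-GFP, 3 of 7 were lower (*Ugt2b1*, *Ugt2b36* and *Ugt2b38*), against 1.42% of all genes. DESeq2 and limma-voom each called 6 of 7 lower, against 2.69% and 4.25% of all genes. With close pairs summed 0 of 8 were lower, against 0.306%. Without AAV-GFP libraries 6 and 7 only *Ugt2b1* was lower, against 1.73%. The last 500 transcribed bases of these 8 genes hold no stretch of 100 bases identical to one in another gene. Only exact identity was searched. Assignment of shorter reads, or of reads aligned with mismatches, between these similar genes was not tested. Within the count filter, *Ugt2b1*, *Ugt2b36* and *Ugt2b38* were the only members called in both comparisons of AAV-miR-34b/c by edgeR.

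*Ugt2b1* (ENSMUSG00000035836, chromosome 5, 86916638 to 86926530) encodes an enzyme that glucuronidates steroids and drugs. *Ugt2b1* stood at 663, 938, 832, 759 and 928 CPM in the 5 vehicle livers, at 467 to 1099.6 (median 866) in AAV-GFP livers and at 209 to 578 (median 382) in AAV-miR-34b/c livers. All 7 AAV-miR-34b/c livers were below all 5 vehicle livers, and 4 of 7 were below all AAV-GFP livers. *Ugt2b1* gave a log2 fold change (with the standard error, SE, of the edgeR estimate) of -1.04 (SE 0.23, adjusted p = 0.00528) against vehicle and -1.10 (SE 0.23, adjusted p = 0.0106) against AAV-GFP. Without AAV-GFP libraries 6 and 7 the latter was -1.01 (adjusted p = 0.0294). AAV-miR-34b/c libraries 1 and 2 had the lowest levels of their group (209 and 230.1 CPM), and without them the value against vehicle was -0.80 (adjusted p = 0.000685). Between AAV-GFP and vehicle it was 0.05 (SE 0.19, adjusted p = 0.888), with AAV-GFP library 4 far below the others at 467 CPM.

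*Ugt2b36* (ENSMUSG00000070704, chromosome 5, 87065927 to 87092555) is a neighbour of *Ugt2b5*. *Ugt2b36* stood at 859, 835, 779, 960.1 and 744 CPM in the 5 vehicle livers, at 373 to 1036 (median 716) in AAV-GFP livers and at 186 to 578 (median 326) in AAV-miR-34b/c livers. The AAV-miR-34b/c and vehicle livers did not overlap, and 5 of 7 AAV-miR-34b/c livers were below all AAV-GFP livers. *Ugt2b36* gave a log2 fold change of -1.18 (SE 0.22, adjusted p = 0.00230) against vehicle and -0.95 (SE 0.25, adjusted p = 0.0462) against AAV-GFP. The call against AAV-GFP held in 4 of 14 fits that left out 1 library (AAV-GFP 3 or 4, or AAV-miR-34b/c 1 or 2), and without AAV-GFP libraries 6 and 7 the value was -0.70 (adjusted p = 0.144).

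*Ugt2b38* (ENSMUSG00000061906, chromosome 5, 87409942 to 87424203) had few counts in all groups. *Ugt2b38* stood at 16.9, 10.2, 20.4, 15.02 and 22.6 CPM in the 5 vehicle livers, at 4.81 to 32.6 (median 8.92) in AAV-GFP livers and at 0.683 to 6.78 (median 4.05) in AAV-miR-34b/c livers. All AAV-miR-34b/c livers were below all vehicle livers, and 6 of 7 were below all AAV-GFP livers (exact permutation test on log2 CPM, two-sided, p = 0.00117). AAV-GFP libraries 6 and 7 were the highest (32.5 and 32.6 CPM) and AAV-miR-34b/c libraries 1 and 2 the lowest (0.683 and 0.795 CPM). *Ugt2b38* gave a log2 fold change of -2.23 (SE 0.38, adjusted p = 0.00117) against vehicle and -2.06 (SE 0.49, adjusted p = 0.0229) against AAV-GFP. Without AAV-GFP libraries 6 and 7 the latter was -1.15 (adjusted p = 0.132), and without either of them alone the call was lost (adjusted p up to 0.0536).

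*Ugt2b37* (ENSMUSG00000057425, chromosome 5, 87240493 to 87254804) fell below the count filter in both comparisons of AAV-miR-34b/c. *Ugt2b37* stood at 29.0, 3.29, 12.0, 28.1 and 10.5 CPM in the 5 vehicle livers, at 2.42 to 17.2 (median 5.25) in AAV-GFP livers and at 0.397 to 3.24 (median 1.07) in AAV-miR-34b/c livers. AAV-miR-34b/c livers did not overlap vehicle livers, and 6 of 7 were below all AAV-GFP livers. The mean log2 CPM of AAV-miR-34b/c livers differed by -2.81 from vehicle (two-sided exact permutation test, p = 0.00126, the smallest that 5 against 7 mice can give) and by -1.85 from AAV-GFP (p = 0.00117, same exact test). With no filter on low counts, edgeR gave -3.38 (adjusted p = 2.55e-05) and -2.25 (adjusted p = 0.00610). Without AAV-miR-34b/c libraries 1 and 2 it passed the filter against AAV-GFP and was lower, at -2.02 (adjusted p = 0.0200, edgeR). Between AAV-GFP and vehicle the edgeR log2 fold change was -1.15 (SE 0.46, adjusted p = 0.0995), and it was -1.83 (adjusted p = 0.00397) without AAV-GFP libraries 6 and 7, which had the highest levels of their group.

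*Ugt2b5* (ENSMUSG00000054630, chromosome 5, 87124960 to 87140318) is the third gene with the 62-base stretch. *Ugt2b5* stood at 556, 580.1, 512, 636 and 609 CPM in the 5 vehicle livers, at 276 to 1127 (median 531) in AAV-GFP livers and at 170.3 to 435 (median 329) in AAV-miR-34b/c livers. AAV-miR-34b/c livers were below all vehicle livers, whereas AAV-GFP livers lay on both sides of them, with libraries 6 and 7 highest (906 and 1127 CPM). *Ugt2b5* gave a log2 fold change of -0.92 (SE 0.21, adjusted p = 0.00597) against vehicle and -1.01 (SE 0.28, adjusted p = 0.0566) against AAV-GFP.

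*Ugt2b34* (ENSMUSG00000029260, chromosome 5, 86889767 to 86906937) lies at the end of the cluster. *Ugt2b34* stood at 361, 381, 304, 378 and 391 CPM in the 5 vehicle livers, at 218 to 454 (median 284) in AAV-GFP livers and at 125 to 321 (median 208) in AAV-miR-34b/c livers. In 6 of 7 AAV-miR-34b/c livers the level was below all vehicle livers. *Ugt2b34* gave a log2 fold change of -0.80 (SE 0.21, adjusted p = 0.0128) against vehicle and -0.58 (SE 0.22, adjusted p = 0.179) against AAV-GFP. *Ugt2b35* (ENSMUSG00000035811, chromosome 5, 87000860 to 87013275) is the only gene of the cluster on the plus strand. *Ugt2b35* stood at 144, 105, 114, 139 and 148 CPM in the 5 vehicle livers, at 75.7 to 197 (median 104) in AAV-GFP livers and at 38.5 to 116 (median 57.5) in AAV-miR-34b/c livers. Again 6 of 7 AAV-miR-34b/c livers were below all vehicle livers. *Ugt2b35* gave a log2 fold change of -0.96 (SE 0.25, adjusted p = 0.0119) against vehicle and -0.88 (SE 0.27, adjusted p = 0.0879) against AAV-GFP.

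Between AAV-GFP and vehicle, the log2 fold change was 0.08 (SE 0.26, adjusted p = 0.869) for *Ugt2b5*, -0.23 (SE 0.18, adjusted p = 0.404) for *Ugt2b34* and -0.09 (SE 0.22, adjusted p = 0.817) for *Ugt2b35*. In the same comparison it was -0.24 (SE 0.21, adjusted p = 0.466) for *Ugt2b36* and -0.19 (SE 0.41, adjusted p = 0.794) for *Ugt2b38*. The AAV-GFP and vehicle livers overlapped for all 5 of these genes. Without AAV-GFP libraries 6 and 7, *Ugt2b38* was lower by edgeR, at -1.09 (adjusted p = 0.00486), and so was *Ugt2b34*, at -0.46 (adjusted p = 0.0209), while *Ugt2b5* stood at -0.36 (adjusted p = 0.129), *Ugt2b35* at -0.43 (adjusted p = 0.0501) and *Ugt2b36* at -0.48 (adjusted p = 0.0504).

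*Ugt2a3* (ENSMUSG00000035780, chromosome 5, 87324972 to 87337195) encodes a family 2 enzyme of the liver and intestine. *Ugt2a3* stood at 367, 508, 350.1, 396 and 360.3 CPM in the 5 vehicle livers, at 211 to 387 (median 262) in AAV-GFP livers and at 152 to 237 (median 189) in AAV-miR-34b/c livers. The AAV-miR-34b/c livers were all below the vehicle livers, and 5 of 7 were below all AAV-GFP livers. *Ugt2a3* gave a log2 fold change of -1.04 (SE 0.15, adjusted p = 0.000321) against vehicle, -0.57 (SE 0.16, adjusted p = 0.0582) against AAV-GFP and -0.48 (SE 0.17, adjusted p = 0.0696) in AAV-GFP against vehicle. Without AAV-GFP libraries 6 and 7, which were the highest of their group (387 and 364 CPM), the last value was -0.68 (adjusted p = 0.00170).

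AAV-miR-34b/c libraries 1 and 2, the pair with high neutrophil markers, were the highest of their group for *Ugt2b5*, *Ugt2b34*, *Ugt2b35* and *Ugt2b36* and the lowest for *Ugt2b1* and *Ugt2b38*. Without them, 12 members were lower than in vehicle, against 21.5% of all genes in that fit, and 1 was higher, against 21.1%. Also without them, 10 were lower than in AAV-GFP, against 4.08% of all genes, and 1 was higher, against 3.47%. The members not called against AAV-GFP with all libraries and lower without this pair included *Ugt2b5* (-1.27, adjusted p = 0.0158), *Ugt2b34* (-0.88, adjusted p = 0.0142), *Ugt2b35* (-1.298, adjusted p = 0.00448), *Ugt2a3* (-0.60, adjusted p = 0.0499) and *Sult2a8* (-1.33, adjusted p = 0.0400; edgeR). Without AAV-GFP libraries 6 and 7, which were the highest of their group for *Ugt2b5*, *Ugt2b34*, *Ugt2b35*, *Ugt2b36* and *Ugt2b38*, only *Ugt2b1* was lower in AAV-miR-34b/c than in AAV-GFP, against 1.73% of all genes, and 8 members were lower in AAV-GFP than in vehicle, against 15.2% of all genes. With the counts of each close pair of libraries summed to 1 sample, 4 members were lower in AAV-miR-34b/c than in vehicle (*Sult2a8*, *Ugt2a3*, *Ugt2b37* and *Ugt2b38*), against 1.21% of all genes, and 0 were lower than in AAV-GFP in edgeR, against 0.306%, where all 8 tested family 2 *Ugt* genes were lower at an unadjusted p under 0.05, against 5.57% of all genes. The neutrophil markers moved with AAV-miR-34b/c, and the 8 pericentral hepatocyte markers, all detected in each group, summed to 3547 to 4075 CPM in vehicle, 1461 to 3381 in AAV-GFP and 2461 to 3067 in AAV-miR-34b/c livers. Of that list, 3 of 8 tested (*Glul*, *Oat* and *Slc1a2*) were lower in AAV-GFP than in vehicle, against 5.19% of all genes. In AAV-miR-34b/c, 2 of 7 (*Cyp2e1* and *Oat*) were lower than in vehicle, against 9.75%. Compared to AAV-GFP, 1 of 7 (*Glul*) was higher, against 1.95%.

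Some markers of other liver cells were called as well. Over all genes, 7.54% were higher and 5.19% lower in AAV-GFP than in vehicle. In AAV-miR-34b/c these shares were 12.2% and 9.75% against vehicle, and 1.95% and 1.42% against AAV-GFP. For lists this short, 1 call cannot be told from these shares. In AAV-GFP against vehicle, 3 of 8 tested hepatic stellate cell markers were higher (*Col1a1*, *Col1a2* and *Pdgfrb*) and 4 of 8 macrophage markers were lower (*Adgre1*, *Cd5l*, *Clec4f* and *Vsig4*). Compared to vehicle, AAV-miR-34b/c livers were lower for 1 of 8 macrophage markers (*Adgre1*) and 1 of 7 hepatocyte markers (*Cps1*). There, 1 of 6 endothelial markers (*Lyve1*) and 1 of 7 hepatocyte markers (*Hnf4a*) were higher. Of 2 tested cholangiocyte markers, *Spp1* was higher in AAV-GFP and *Sox9* in AAV-miR-34b/c than in vehicle. Between the TAA groups, AAV-miR-34b/c livers were lower for 2 of 7 stellate cell markers (*Col1a1* and *Col3a1*). They were higher for 1 of 8 macrophage markers (*Cd5l*) and 1 of 6 endothelial markers (*Lyve1*). Summed, the 9 stellate cell markers stood at 363 to 556 CPM in vehicle, 403 to 524 in AAV-GFP and 261 to 480.1 in AAV-miR-34b/c livers, and the 8 macrophage markers at 367 to 737, 288 to 494 and 448 to 596 CPM. The 6 cholangiocyte markers summed to 18.6 to 40.8 CPM in vehicle, 53.3 to 97.1 in AAV-GFP and 49.9 to 119 in AAV-miR-34b/c livers. Neither TAA group overlapped vehicle for this sum. All of these markers were detected in each group. The part of the neutrophil, pericentral, stellate cell, macrophage, endothelial and cholangiocyte markers in the members' values was not tested.

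**Figure D2:**
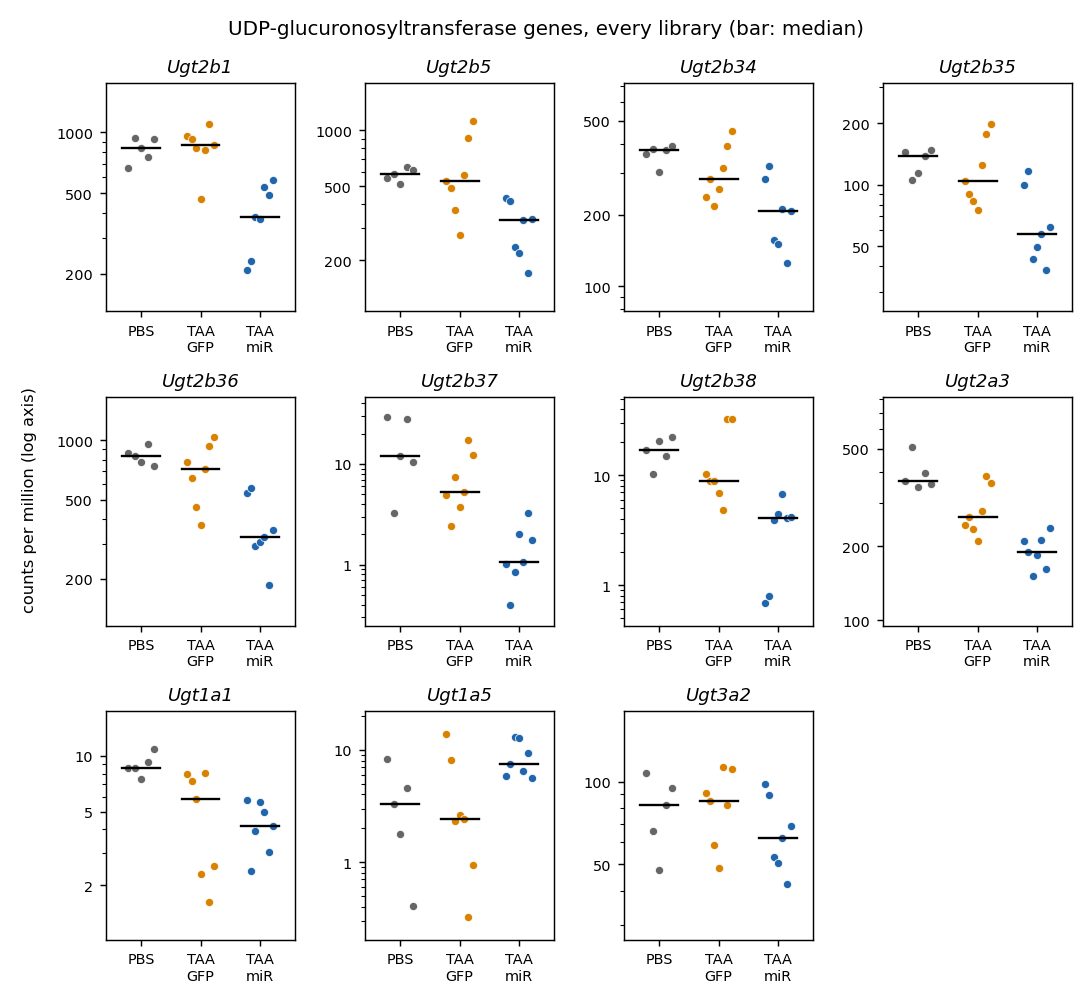
CPM (log axis) of the 11 tested *Ugt* genes in every library, with 1 point per library and a bar at the group median; PBS is vehicle, TAA GFP is AAV-GFP and TAA miR is AAV-miR-34b/c. *Ugt2b1*, *Ugt2b5*, *Ugt2b36*, *Ugt2b37*, *Ugt2b38*, *Ugt2a3* and *Ugt1a1* show no overlap between TAA miR and PBS. The share of all genes without such overlap was not counted. The highest *Ugt2b5* and *Ugt2b38* points of TAA GFP are libraries 6 and 7.

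**Figure D3:**
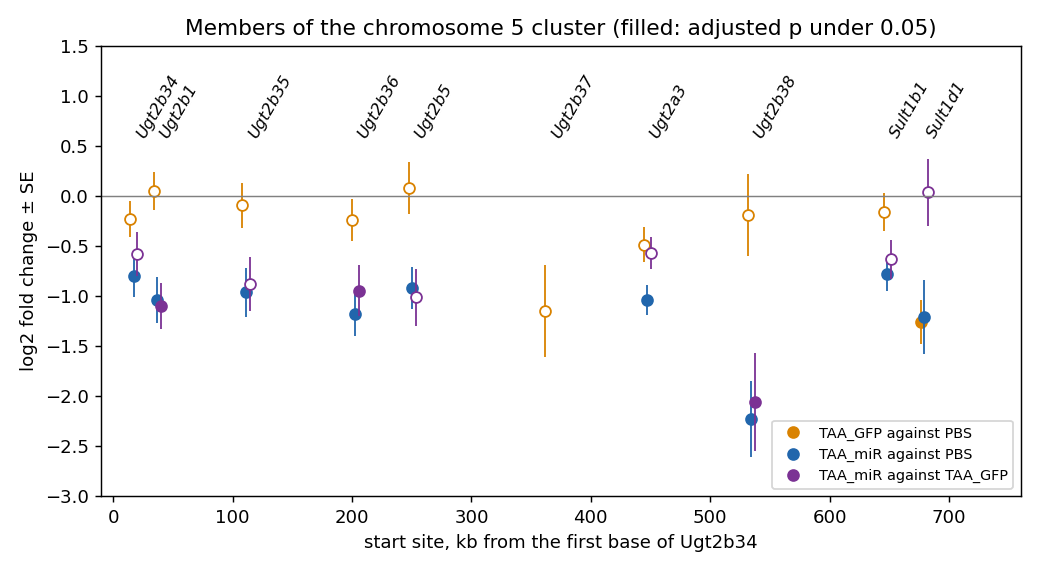
Log2 fold change (y axis, ± standard error) of the 10 tested members of the chromosome 5 cluster against the distance of the start site from the first base of *Ugt2b34* (x axis, kb), with filled points at an adjusted p under 0.05 (edgeR). All 9 values of AAV-miR-34b/c against vehicle (TAA_miR against PBS) lie below 0 and are filled, those of *Sult1b1* and *Sult1d1* among them. Over all genes, 9.75% were called lower in that comparison.

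The *Ugt1a* genes share their last exons and differ in the first, so a 3′-end read does not tell which of them it came from. Of the 5 exons of *Ugt1a1*, 3 internal ones (at 88215044 to 88215175, 88215795 to 88215882 and 88216138 to 88216357 on chromosome 1) are shared by all 9 *Ugt1a* genes. Its last exon (88218127 to 88218997) has the same coordinates in 6 of them. Of the 100-base stretches near the 3′ end of *Ugt1a1*, 100% occur in another *Ugt1a* gene. The division of counts between these genes is therefore uncertain. *Ugt1a1* (ENSMUSG00000089960, chromosome 1, 88211959 to 88218997), whose product is the bilirubin-conjugating enzyme of the liver, was low in counts. *Ugt1a1* stood at 8.63, 8.56, 7.53, 9.20 and 10.9 CPM in the 5 vehicle livers, at 1.62 to 8.09 (median 5.82) in AAV-GFP livers and at 2.38 to 5.80 (median 4.18) in AAV-miR-34b/c livers. All AAV-miR-34b/c livers were below all vehicle livers. *Ugt1a1* gave a log2 fold change of -1.07 (SE 0.27, adjusted p = 0.0108) against vehicle, -0.28 (SE 0.36, adjusted p = 0.80) against AAV-GFP, and a value of -0.80 (SE 0.36, adjusted p = 0.143) between AAV-GFP and vehicle. *Ugt1a5* (chromosome 1, 88166012 to 88218997) was not called by edgeR with all libraries. *Ugt1a5* stood at 8.29, 3.29, 1.77, 4.60 and 0.404 CPM in the 5 vehicle livers, at 0.325 to 13.9 (median 2.41) in AAV-GFP livers and at 5.58 to 13.0 (median 7.55) in AAV-miR-34b/c livers. The groups overlapped, and 3 of 7 AAV-miR-34b/c livers were above all vehicle livers. *Ugt1a5* gave a log2 fold change of 1.19 (SE 0.44, adjusted p = 0.0623) against vehicle and 0.97 (SE 0.50, adjusted p = 0.379) against AAV-GFP. It was called higher than in vehicle by DESeq2 (adjusted p = 0.0269), by limma-voom (adjusted p = 0.0139) and by edgeR without AAV-miR-34b/c libraries 1 and 2 (1.296, adjusted p = 0.0261) or without vehicle library 1 (1.68, adjusted p = 0.0231).

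*Ugt3a2*, of a family that uses other sugars than glucuronic acid, did not pass edgeR's test in any comparison of all libraries. Its level was 79.6 ± 23.6 CPM (SD, n = 5) in vehicle, 84.2 ± 24.4 (SD, n = 7) in AAV-GFP and 66.5 ± 20.7 (SD, n = 7) in AAV-miR-34b/c livers. The groups overlapped, and the log2 fold changes were 0.09 (AAV-GFP against vehicle), -0.26 (AAV-miR-34b/c against vehicle) and -0.36 (AAV-miR-34b/c against AAV-GFP). Without AAV-miR-34b/c libraries 1 and 2, *Ugt3a2* was lower than in vehicle, at -0.53 (adjusted p = 0.0406, edgeR).

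Sulfotransferase genes were lower in part and, between the TAA groups, higher in 1 case. Between AAV-GFP and vehicle, 2 of 5 tested were lower (*Sult1a1* and *Sult1d1*), against 5.19% of all genes, and all 5 values were below 0. At an unadjusted p under 0.05 in edgeR, 4 of these 5 were lower, against 13.5%. DESeq2 called 3 and limma-voom 4 lower, against 6.74% and 14.0%, and none higher. In AAV-miR-34b/c against vehicle, 3 of 6 were lower (*Sult1b1*, *Sult1d1* and *Sult2a8*), against 9.75%, and 3 had values above 0. Between the TAA groups 1 of 5 was higher (*Sult1a1*), against 1.95%, and 0 were lower in edgeR, against 1.42%. At an unadjusted p under 0.05 in edgeR, 2 were higher there, against 7.51%, and *Sult1b1* and *Sult2a8* were lower, against 7.77%. DESeq2 and limma-voom each called 2 higher, against 3.28% and 4.54%. DESeq2 called 1 lower and limma-voom 0, against 2.69% and 4.25%. *Sult1d1* was the only member that edgeR called lower in both comparisons with vehicle, which share the vehicle libraries, against 3.11% of all genes tested in both. DESeq2 called 2 such members (*Sult1d1* and *Ugt2a3*), against 4.34%, and limma-voom 4 (*Sult1d1*, *Sult2a8*, *Ugt2a3* and *Ugt2b38*), against 11%. With AAV-GFP libraries 6 and 7 left out edgeR called 5 (the same 4 and *Ugt2b34*), against 6.25%.

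*Sult1a1* (ENSMUSG00000030711, chromosome 7, 126672865 to 126676432) encodes the enzyme that sulfates small phenols. *Sult1a1* stood at 98.8, 103, 124, 102 and 107 CPM in the 5 vehicle livers, at 46.6 to 89.8 (median 67.5) in AAV-GFP livers and at 78.8 to 272 (median 117) in AAV-miR-34b/c livers. All 7 AAV-GFP livers were below all 5 vehicle livers, and 5 of 7 AAV-miR-34b/c livers were above all AAV-GFP livers. *Sult1a1* gave a log2 fold change of -0.75 (SE 0.17, adjusted p = 0.00899) between AAV-GFP and vehicle and 1.14 (SE 0.26, adjusted p = 0.0184) in AAV-miR-34b/c against AAV-GFP. Compared to vehicle, the AAV-miR-34b/c value was 0.40 (SE 0.27, adjusted p = 0.302). The highest levels were those of AAV-miR-34b/c libraries 1 and 2 (272 and 212 CPM). Without them the difference from AAV-GFP was 0.64 (adjusted p = 0.0361) and that from vehicle -0.10 (adjusted p = 0.619). The call against AAV-GFP was lost without AAV-GFP library 1 (adjusted p = 0.0510). With close pairs of libraries summed, edgeR called *Sult1a1* neither in AAV-GFP against vehicle nor between the TAA groups. The call of AAV-GFP against vehicle was also lost with all 3 groups in one fit. Of the 100-base stretches near its 3′ end, 3.06% are shared with *Gm6939*.

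*Sult1d1* (ENSMUSG00000029273, chromosome 5, 87554645 to 87569027) encodes a catecholamine-sulfating enzyme. *Sult1d1* stood at 326, 155, 229, 359 and 227 CPM in the 5 vehicle livers, at 64.1 to 161 (median 111) in AAV-GFP livers and at 53.3 to 255 (median 71.8) in AAV-miR-34b/c livers. In 6 of 7 AAV-GFP and 5 of 7 AAV-miR-34b/c livers the level was below all vehicle livers. *Sult1d1* gave a log2 fold change of -1.26 (SE 0.22, adjusted p = 0.00118) in AAV-GFP and -1.21 (SE 0.37, adjusted p = 0.0275) in AAV-miR-34b/c, both against vehicle. The latter call was lost without vehicle library 1 or 4 or AAV-miR-34b/c library 3, 4, 5 or 7 (adjusted p up to 0.0813). The exceptions among AAV-miR-34b/c livers were libraries 1 and 2 (255 and 201 CPM), against 53.3 to 73.0 in the other 5. Between the TAA groups the value was 0.04 (SE 0.33, adjusted p = 0.977), while the mean log2 CPM over all libraries differed by -0.17. Without AAV-miR-34b/c libraries 1 and 2 the value was -0.75 (adjusted p = 0.0257), and no other setting gave a call. Without the same 2 libraries, the value against vehicle was -1.996 (adjusted p = 4.07e-06).

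*Sult1b1* (ENSMUSG00000029269, chromosome 5, 87513339 to 87538195) encodes an enzyme that sulfates thyroid hormones. *Sult1b1* stood at 58.7, 55.3, 48.3, 65.2 and 50.1 CPM in the 5 vehicle livers, at 27.4 to 66.4 (median 47.7) in AAV-GFP livers and at 23.2 to 44.3 (median 31.0) in AAV-miR-34b/c livers. AAV-miR-34b/c livers were all below vehicle livers and AAV-GFP livers overlapped both. *Sult1b1* gave a log2 fold change of -0.78 (SE 0.18, adjusted p = 0.00689) in AAV-miR-34b/c against vehicle and -0.63 (SE 0.19, adjusted p = 0.0851) against AAV-GFP.

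*Sult2a8* (ENSMUSG00000030378, chromosome 7, 14410686 to 14446769) encodes a liver sulfotransferase of bile acids. *Sult2a8* stood at 412, 300.1, 312, 441 and 412 CPM in the 5 vehicle livers, at 42.2 to 406 (median 205) in AAV-GFP livers and at 57.5 to 159 (median 111) in AAV-miR-34b/c livers. No AAV-miR-34b/c liver reached the lowest vehicle liver, and the AAV-GFP livers ranged from below the lowest AAV-miR-34b/c liver, in library 4, to the vehicle level in libraries 6 and 7 (341 and 406 CPM). *Sult2a8* gave a log2 fold change of -1.81 (SE 0.24, adjusted p = 0.000154) in AAV-miR-34b/c against vehicle, -1.06 (SE 0.35, adjusted p = 0.115) against AAV-GFP, and a value of -0.76 (SE 0.33, adjusted p = 0.124) between AAV-GFP and vehicle. Without AAV-GFP libraries 6 and 7 the last value was -1.22 (adjusted p = 0.00290).

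*Sult5a1* and *Sult2a7* did not pass edgeR's test in any comparison of all libraries. *Sult5a1* was at 29.3 ± 7.86 CPM (SD, n = 5) in vehicle, 15.2 ± 8.85 (SD, n = 7) in AAV-GFP and 30.9 ± 12.6 (SD, n = 7) in AAV-miR-34b/c livers, and the groups overlapped. *Sult5a1* gave a log2 fold change of -0.95 (SE 0.32, adjusted p = 0.0565) between AAV-GFP and vehicle and 1.02 (SE 0.33, adjusted p = 0.104) between the TAA groups. Other settings called *Sult5a1*. It was lower in AAV-GFP than in vehicle by DESeq2 (adjusted p = 0.0398), by limma-voom (adjusted p = 0.0105), by edgeR with no filter (adjusted p = 0.0297) and by edgeR without AAV-GFP libraries 6 and 7 (-1.002, adjusted p = 0.0262), and it was higher in AAV-miR-34b/c than in AAV-GFP by DESeq2 (adjusted p = 0.0497) and limma-voom (adjusted p = 0.0369). *Sult2a7* was tested only between AAV-miR-34b/c and vehicle, with a value of 1.23 (SE 0.65, adjusted p = 0.178) and 0 to 45 counts per library in these groups.

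**Figure D4:**
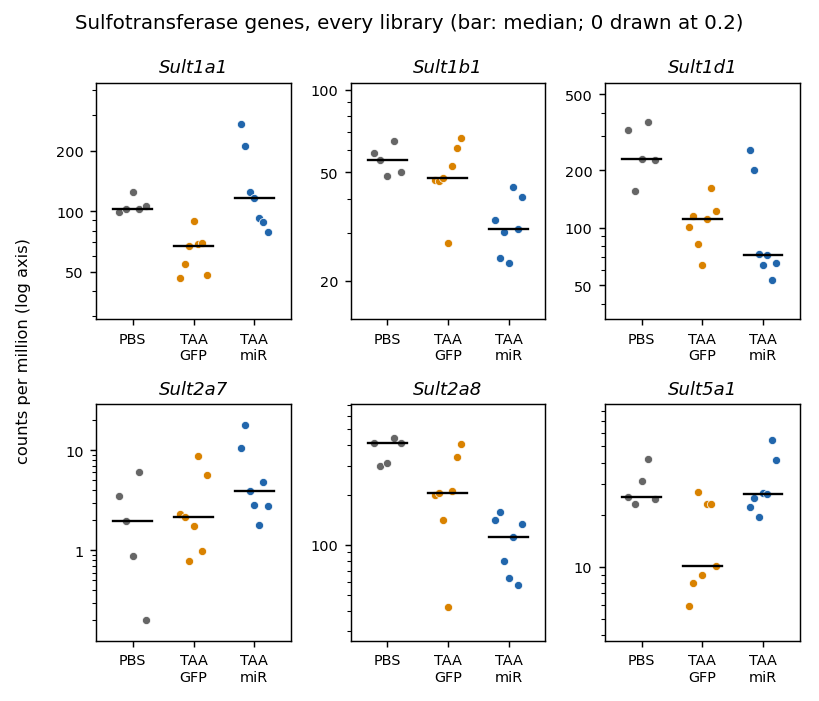
CPM (log axis) of the 6 tested *Sult* genes in every library, with 1 point per library, a bar at the group median and a value of 0 drawn at 0.2; PBS is vehicle, TAA GFP is AAV-GFP and TAA miR is AAV-miR-34b/c. TAA miR libraries 1 and 2 are the highest of their group for *Sult1a1* and *Sult1d1*, and TAA GFP lies wholly below PBS for *Sult1a1*.

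Genes that supply the cosubstrates, export the conjugates or control the enzymes were taken as a list of 37. Between AAV-GFP and vehicle, 5 of 34 tested were higher, against 7.54% of all genes, and 1 was lower, against 5.19%, with a median log2 fold change of 0.18, against -0.01 in all genes. Compared to vehicle, AAV-miR-34b/c livers had 3 of 33 higher, against 12.2% of all genes, and 5 lower, against 9.75% (median 0.10, against 0.02). Between the TAA groups 0 of 33 were higher, against 1.95%, and 2 were lower, against 1.42%, in edgeR (median -0.24, against -0.01). At an unadjusted p under 0.05, 3 were higher and 7 lower there, and DESeq2 called 0 higher and 3 lower and limma-voom 1 higher and 6 lower. With the counts of close pairs of libraries summed, edgeR called *Gclc* and *Hnf4a* only, *Gclc* higher in AAV-GFP than in vehicle and lower in AAV-miR-34b/c than in AAV-GFP, and *Hnf4a* higher in AAV-miR-34b/c than in vehicle. The calls of the other pathway genes named here, and that of *Hnf4a* between AAV-GFP and vehicle, were lost.

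Of the 3 genes of UDP-glucuronic acid supply, *Ugp2*, which makes UDP-glucose, was lower in AAV-miR-34b/c than in vehicle. *Ugp2* stood at 261, 251, 165, 303 and 193 CPM in the 5 vehicle livers, at 96.5 to 265 (median 157) in AAV-GFP livers and at 56.3 to 162 (median 105) in AAV-miR-34b/c livers. All AAV-miR-34b/c livers were below all vehicle livers, and the log2 fold change was -1.17 (SE 0.25, adjusted p = 0.00413). Of the 7 genes of PAPS supply, the PAPS synthase gene *Papss1* was higher in both TAA groups than in vehicle, with a log2 fold change of 1.40 (SE 0.35, adjusted p = 0.0134) in AAV-GFP and 1.25 (SE 0.31, adjusted p = 0.00962) in AAV-miR-34b/c. Its levels were low, with 1.73 to 3.99 CPM in vehicle, 4.74 to 13.0 in AAV-GFP and 5.56 to 8.74 in AAV-miR-34b/c livers, and neither TAA group overlapped vehicle. *Slc35b3*, which carries PAPS into the Golgi, was lower in AAV-GFP than in vehicle, at -1.23 (SE 0.36, adjusted p = 0.0317). That call was lost in 5 of 12 fits that left out 1 library (vehicle 1 or 4, or AAV-GFP 1, 3 or 4, adjusted p up to 0.154).

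The export pump gene *Abcg2* was lower in AAV-miR-34b/c than in both other groups. *Abcg2* stood at 73.6, 81.0, 81.1, 77.3 and 87.2 CPM in the 5 vehicle livers, at 52.6 to 100.2 (median 84.2) in AAV-GFP livers and at 47.4 to 61.8 (median 53.6) in AAV-miR-34b/c livers. The AAV-miR-34b/c livers were all below the vehicle livers and overlapped AAV-GFP livers at their upper end. *Abcg2* gave a log2 fold change of -0.56 (SE 0.13, adjusted p = 0.00667) against vehicle and -0.57 (SE 0.15, adjusted p = 0.0347) against AAV-GFP. The call against AAV-GFP held in 4 of 14 fits that left out 1 library (AAV-GFP 3 or 4, or AAV-miR-34b/c 1 or 2) and was lost without AAV-GFP libraries 6 and 7. *Abcc3*, which exports conjugates to blood, was higher in AAV-GFP than in vehicle, at 1.06 (SE 0.26, adjusted p = 0.0118).

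Of the 13 receptor and factor genes, *Hnf4a*, which encodes a main hepatocyte transcription factor, was higher than in vehicle in both TAA groups. Its log2 fold change was 0.86 (SE 0.18, adjusted p = 0.00538) in AAV-GFP and 1.21 (SE 0.15, adjusted p = 1.00e-04) in AAV-miR-34b/c. In AAV-miR-34b/c livers, compared to vehicle, *Nr1i3*, which encodes the xenobiotic receptor CAR, was lower, at -0.998 (SE 0.23, adjusted p = 0.00687), and so was *Nr1h4*, which encodes the bile acid receptor FXR, at -0.80 (SE 0.20, adjusted p = 0.00948). Between the TAA groups, 0 of these 13 genes passed the test in edgeR. There, 3 were higher and 1 was lower at an unadjusted p under 0.05, DESeq2 called 1 lower, and limma-voom called 1 higher and 1 lower.

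Of 6 genes used as readouts of these receptors and factors, 4 were tested. In edgeR, 2 were higher in AAV-GFP than in vehicle, against 7.54% of all genes, and 0 lower. Between the TAA groups 1 was lower, against 1.42%, and 0 higher. *Nqo1* and *Cyp1a2* were tested and called in no comparison. *Gclc*, an NRF2 target of glutathione synthesis, was higher in AAV-GFP than in both other groups. *Gclc* stood at 134, 158, 156, 139 and 138 CPM in the 5 vehicle livers, at 291 to 497 (median 442) in AAV-GFP livers and at 145 to 213 (median 171) in AAV-miR-34b/c livers. All AAV-GFP livers were above all livers of both other groups. *Gclc* gave a log2 fold change of 1.53 (SE 0.16, adjusted p = 6.92e-06) between AAV-GFP and vehicle and -1.31 (SE 0.14, adjusted p = 2.97e-05) in AAV-miR-34b/c against AAV-GFP. *Cyp3a11*, a target of the xenobiotic receptor PXR, was higher in AAV-GFP than in vehicle, at 1.06 (SE 0.27, adjusted p = 0.0150). These groups overlapped, with 691 to 1445 CPM in vehicle and 1075 to 3624 in AAV-GFP livers. AAV-miR-34b/c libraries 1 and 2 stood at 3226 and 3026 CPM, against 455 to 911 in the others of their group.

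**Figure D5:**
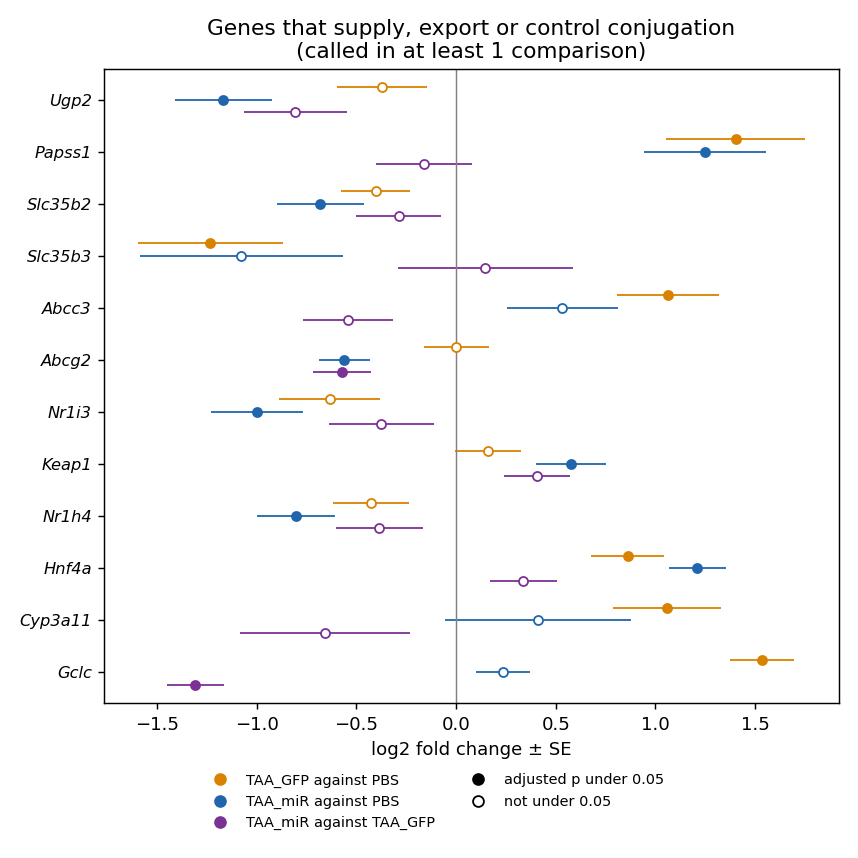
Log2 fold change (x axis, ± standard error) of the pathway genes called in at least 1 of the 3 comparisons (TAA_GFP is AAV-GFP, TAA_miR is AAV-miR-34b/c and PBS is vehicle), with filled points at an adjusted p under 0.05 (edgeR). *Papss1* and *Hnf4a* are filled above 0 in both comparisons with PBS, and *Abcg2* is filled below 0 in both comparisons of TAA_miR.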

How the data were processed

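Liver RNA of 19 mice was sequenced from libraries of the QuantSeq 3′ mRNA kit. The input was 100 ng of total RNA per the labels and 125 ng per the study's methods. After trimming, alignment and counting by gene, the authors deposited raw counts of 31053 genes in one table, without normalization. The submitters' processing notes name STAR and mm10. The study's methods name a proprietary, versioned pipeline (NEGEDIA Digital mRNA-seq). Versions of the aligner and counter, the annotation, whether counting used strand, and whether molecular identifiers were used are not given in the sources used here, so that counts can include PCR duplicates, and reads of overlapping genes may be shared.

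Symbols, positions and exons were taken from GENCODE (GRCm38) by Ensembl identifier (31011 genes matched), and promoters (36 of the 42 members matched) and the miRNA from RefSeq (GRCm38.p6). Counts were tested with edgeR 4.0.16 in R 4.3.3 (TMM, filterByExpr with min.count 10 and min.total.count 15, quasi-likelihood test), in each of 3 pairs of groups with no covariate, and p-values were adjusted over all genes tested (Benjamini-Hochberg, threshold 0.05). The test was checked on simulated counts. Single genes were also compared by an exact permutation test on log2 CPM (two-sided, prior count 2). Groups were taken from the titles.

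Every member called in at least 1 comparison is named with its values, tested members without a call are named with their ranges or means, and untested members by their highest count. Pathway genes are named where called, up to 6 per comparison by smallest adjusted p. The members and lists were chosen with earlier results of these data known. Alternatives to the test were DESeq2 1.42.0, limma-voom (limma 3.58.1, weights per sample), one edgeR fit over all 3 groups, and a block for the replicate number. Alternatives to the input were testing without the filter, a floor of 10 counts per library, size factors of DESeq2, scaling by library size only, summing close pairs of libraries, and leaving out each library. Leaving out AAV-miR-34b/c libraries 1 and 2 or AAV-GFP libraries 6 and 7 was chosen after the data were seen.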

Additional observations from a re-analysis of the deposited data

Results flagged for a closer look

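Over 51 sets of values, each the log2 CPM of 1 member in 1 group, 2 held a library far from the others, where chance gives about 1 in 20, or 2.55. Both were AAV-GFP library 4. For *Sult1b1* it stood at 4.81 log2 CPM (27.4 CPM), with the next lowest library at 5.56. For *Ugt2b1* it stood at 8.87 log2 CPM (467 CPM), with the next lowest at 9.67. Without this library, 7 members were lower in AAV-miR-34b/c than in AAV-GFP, against 3 with it, and the share of all genes called lower was 1.64%, against 1.42%.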

How the results depend on the processing

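The 33 called fold changes (17 of members and 16 of pathway genes) kept their direction in all 739 values under alternatives, and 646 of these passed the threshold. Of 682 values of the 30 uncalled fold changes of members, 31 changed sign. Normalization by library size only moved the median log2 fold change of all genes to -0.13 between AAV-miR-34b/c and vehicle and to -0.20 between the TAA groups. The number of members lower in AAV-GFP than in vehicle (2) became 4 with DESeq2, 7 with limma-voom, 1 with all 3 groups in one fit, 1 with close pairs summed and 8 without AAV-GFP libraries 6 and 7, and it was 2 to 5 with 1 library left out (5 without AAV-GFP 6). The share of all genes called lower there was 5.19%, and it was 6.74%, 14.0%, 4.32%, 0.846% and 15.2% under the same 5 settings. The number higher in AAV-miR-34b/c than in vehicle (0) became 1 with DESeq2, limma-voom and without AAV-miR-34b/c libraries 1 and 2 (14.2%, 20.5% and 21.1% of all genes, against 12.2%), and was 0 to 1 with 1 library left out. The number lower (11) became 4 with close pairs summed (1.21% of all genes, against 9.75%) and was 10 to 12 with 1 library left out. Between the TAA groups, the number higher (1) became 2 with DESeq2 and with limma-voom (*Sult1a1* and *Sult5a1*) and 0 with close pairs summed (3.28%, 4.54% and 0.526% of all genes, against 1.95%), and was 0 to 1 with 1 library left out. The number lower (3) became 5 with no filter, 9 with library size only, 7 with DESeq2, 6 with limma-voom, 8 with all 3 groups in one fit, 0 with close pairs summed, 1 without AAV-GFP libraries 6 and 7 and 10 without AAV-miR-34b/c libraries 1 and 2. With 1 library left out it was 1 to 7 (1 without AAV-GFP 6 or 7 and 7 without AAV-GFP 4). The share of all genes called lower there was 1.42%, and it was 0.702%, 5.46%, 2.69%, 4.25%, 1.86%, 0.306%, 1.73% and 4.08% under the same 8 settings. With library size only, all genes were called higher in 7.86% and lower in 17.4% between AAV-miR-34b/c and vehicle (12.2% and 9.75% with TMM), and in 1.29% and 5.46% between the TAA groups (1.95% and 1.42%). The cause of these shifts was not tested.

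Replicate numbers are shared between groups, but same-numbered libraries did not deviate together (correlation of deviations -0.45 to 0.47, of both signs), and they share only a number. With a replicate block, 10 members were lower in AAV-GFP than in vehicle, 10 were lower in AAV-miR-34b/c than in vehicle, and 1 was lower and 0 were higher in AAV-miR-34b/c than in AAV-GFP. Over all genes the block called 16.0%, 4.17% and 0.638% lower in these comparisons, against 5.19%, 9.75% and 1.42% without it, and 0.897% higher, against 1.95%, between the TAA groups.

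Of the values that changed sign, 1 passed the threshold (*Sult1d1* between the TAA groups). *Ugt2b1* between AAV-GFP and vehicle (0.05) was -0.013 with limma-voom, -0.069 with the replicate block, -0.014 with close pairs summed, -0.037 without AAV-GFP libraries 6 and 7, and -0.019 to 0.16 with 1 library left out. *Ugt2b5* in that comparison (0.08) was -0.25, -0.40 and -0.36 with limma-voom, the replicate block and without these libraries, and -0.14 to 0.21 with 1 left out. *Sult1a1* between AAV-miR-34b/c and vehicle (0.40) was -0.10 without AAV-miR-34b/c libraries 1 and 2. *Sult1d1* between the TAA groups (0.04) was -0.21 with library size only, -0.41 with limma-voom, -0.18 with the replicate block, -0.0463 with close pairs summed, -0.75 without AAV-miR-34b/c libraries 1 and 2 (adjusted p = 0.0257), and -0.31 to 0.16 with 1 left out. *Ugt1a5* between AAV-GFP and vehicle (0.21) was -0.0326 with close pairs summed and -0.0545 to 0.71 with 1 left out. *Ugt3a2* in that comparison (0.09) was -0.0352 with limma-voom, -0.0109 with the replicate block and -0.0443 to 0.23 with 1 left out. *Sult5a1* between AAV-miR-34b/c and vehicle (0.08) was -0.0400 with library size only, -0.0415 with limma-voom, -0.26 with the replicate block and -0.13 to 0.25 with 1 left out. At 2214073 to 5208405 counts per library, members with a few counts are measured with low precision.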
